A study of Mus musculus with 4 samples.

Results

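Ccl21a-rich reticular fibroblasts of the late db/db pancreatic islet library numbered 121 of the 20845 cell barcodes kept in the series, and 1.92% of the 6301 kept in that library. The cells were chosen by their counts. A barcode was taken with 1000 or more UMIs (unique molecular identifiers, each counted as 1 captured transcript), 500 or more genes and no more than 20% of UMIs from mitochondrial genes. It also needed at least 10 UMIs of Ccl21a and Ccl19 together, and at least 3 UMIs over Col1a1, Col1a2, Col3a1, Dcn, Pdgfra and Pdgfrb. The pan-leukocyte gene Ptprc had to be at 0, the endothelial genes Pecam1 and Cdh5 at 1 UMI or less together, and Ins1 with Ins2 under 10% of UMIs. All of these genes chose the cells, so their levels are descriptions and support nothing.

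Reticular fibroblasts are the connective tissue cells of lymph nodes, spleen and tertiary lymphoid tissue, where they build the fibre network on which lymphocytes move. In T cell zones they secrete CCL21 and CCL19, which draw in T cells and dendritic cells through the receptor CCR7, and near B cell follicles related cells secrete CXCL13, the ligand of CXCR5. Lymphotoxin from lymphocytes acts on its receptor on these cells through the NF-kappaB proteins NFKB2 and RELB. Healthy islets are not lymphoid tissue, and the tissue within the islet preparation from which these cells came was not tested.

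The study profiled islet cells of male mice with a 10x 3′ kit, in 4 libraries. These were a normal control, an early and a late db/db library, and a late db/db library with an intervention, with 1 library to a group. The early group is labelled as 70 days old and the other groups as 98 days. db/db mice lack a working leptin receptor and become obese and diabetic, and those used here were fed until glucose in the blood had passed 10 mmol/l. Every genotype label reads db/db(C57BL/KsJ), the control's too, although C57BL/6 mice are also named in the growth protocol. The sources used here describe neither the intervention nor the number of mice pooled in a library.

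The 4 libraries held between 120934779 and 166034254 UMIs, and between 4629 and 6301 barcodes were kept in each. Between 8 and 21 barcode sequences recurred in a pair of libraries, and none of the 121 did. Scrublet placed 9 of the 121 among the highest doublet scores of the library. With 1 library per group, no test and no replicate check were possible. Every interval given here is a 95% interval for counting error only, and group, animals and library cannot be told apart.

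The 121 cells were deeply sequenced. UMIs per cell ran from 1045 through a median of 13994 to 50019, and the median number of genes was 3800. Ccl21a and Ccl19 together had from 11 to 2199 UMIs per cell, with a median of 575, so most cells lay far above the limit of 10. The 8 lowest cells had 11, 12, 12, 12, 13, 13, 13 and 17 UMIs, and the only 3 stromal barcodes of late db/db with 3 to 9 UMIs had 3, 6 and 8. Ccl21a exceeded Ccl19 in 114 cells and Ccl19 exceeded Ccl21a in 7, and 8 cells had under 10 Ccl21a UMIs.

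Pdpn, the gene of podoplanin and the last of the markers behind the name, was present and did not set these cells apart. Its level was 108 CPM (counts per 1000000 UMIs, leaving out mitochondrial and 7 hormone genes), against 128 in the other fibroblasts of late db/db and 111 in fibroblasts of early db/db. A Pdpn UMI was seen in 74 of the 121 cells, and 47 had none. Genes of pericytes and smooth muscle, which line small vessels, were also present: 98 cells had at least 3 UMIs over Rgs5, Cspg4, Notch3, Kcnj8 and Abcc9. The name reticular fibroblast comes from genes the rule itself used, which cannot support it. It is used here as a label, and the cells also carried mural genes at the levels given further on.

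Ccl21a lies at chr4:42772860-42773993 on the minus strand of GRCm38 and Ccl19 at chr4:42754525-42756577, also on the minus strand, with annotation from GENCODE M21. Mouse chromosome 4 carries several near-identical Ccl21 copies. All 64881 Ccl21a UMIs of the 121 cells were counted on that 1 gene, with 1 UMI on the copy Gm21541 and 0 on Ccl21b, Ccl21c and Gm13304. The Ccl21a transcript of 870 bases differs from that of Gm21541 at 6 positions, and 160 of its last 310 windows of 91 bases (51.6%) occur in a copy. The Ccl21a count may therefore include transcripts of its copies, and it is uncertain to that extent.

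The promoters of both chemokines are shown with those of Madcam1, an adhesion ligand, and Nfkbia, an NF-kappaB inhibitor, because the rule used the first pair and the windows of the last pair hold a match to an NF-kappaB motif. The sequences run 5′ to 3′ on the gene's strand from 250 bases before to 50 bases after the RefSeq start in GRCm38.p6, and capitals mark matches to the kappaB motif, searched on both strands as GGGA, any 2 bases, then TTCC. The windows are chr4:42773942-42774241 (minus strand) for Ccl21a, chr4:42756316-42756615 (minus) for Ccl19, chr10:79664309-79664608 (plus) for Madcam1 and chr12:55492598-55492897 (minus) for Nfkbia.
Ccl21a: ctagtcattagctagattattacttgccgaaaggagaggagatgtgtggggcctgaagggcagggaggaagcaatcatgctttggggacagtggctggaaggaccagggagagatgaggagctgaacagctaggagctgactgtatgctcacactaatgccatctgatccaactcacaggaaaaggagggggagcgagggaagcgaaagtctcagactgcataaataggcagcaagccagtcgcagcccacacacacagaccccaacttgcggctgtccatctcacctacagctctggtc
Ccl19: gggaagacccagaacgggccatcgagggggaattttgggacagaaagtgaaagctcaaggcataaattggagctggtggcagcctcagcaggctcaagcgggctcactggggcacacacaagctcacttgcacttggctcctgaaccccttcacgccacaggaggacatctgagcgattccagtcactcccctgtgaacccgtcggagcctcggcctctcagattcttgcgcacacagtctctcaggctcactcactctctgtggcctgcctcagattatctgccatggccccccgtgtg
Madcam1: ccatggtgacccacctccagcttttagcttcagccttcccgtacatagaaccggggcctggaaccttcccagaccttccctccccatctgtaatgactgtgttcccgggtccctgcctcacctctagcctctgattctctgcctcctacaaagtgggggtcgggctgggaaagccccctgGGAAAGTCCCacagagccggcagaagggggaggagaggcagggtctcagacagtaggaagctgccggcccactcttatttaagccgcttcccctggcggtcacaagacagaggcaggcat
Nfkbia: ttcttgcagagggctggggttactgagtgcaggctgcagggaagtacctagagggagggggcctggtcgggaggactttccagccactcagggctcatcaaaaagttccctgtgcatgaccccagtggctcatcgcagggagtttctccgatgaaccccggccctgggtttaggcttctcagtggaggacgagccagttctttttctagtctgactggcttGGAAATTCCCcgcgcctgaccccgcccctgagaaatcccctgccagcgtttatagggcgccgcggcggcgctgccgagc
The match starts 70 bases before the start in Madcam1 and 29 bases before it in Nfkbia. The motif occurred in 482 of 32851 promoter windows (1.47%), or for 441 of 27025 gene symbols. Of the matched genes it occurred in 5 of 23 lymphocyte-attracting and survival factors (Csf1, Cxcl1, Cxcl10, Il6 and Kitl). It occurred in 2 of 17 lymphoid stroma surface genes (Clec1b and Madcam1) and in 2 of 21 genes of the lymphotoxin receptor and NF-kappaB pathway (Nfkb2 and Nfkbia). Of the 5 factors with it, Kitl was higher than in the other late fibroblasts, Il6 lower, and Csf1, Cxcl1 and Cxcl10 neither. No match to this string lay in the windows of Ccl21a, Ccl19, Cxcl13, Grem1, Cxcl12, Il33 or Tnfsf11. A looser string, GGG, any 5 bases, then CC, occurred in 16686 of the 32851 windows (50.8%) and was not marked. Windows without a match may therefore hold other forms of the motif. A match is a string of letters, not a measured binding site.

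Most barcodes that met the rule were in late db/db. Of the barcodes that met every condition except that on the chemokines, hereafter stromal barcodes, 121 of 193 met it in late db/db (62.7%, 55.5 to 69.5, exact Clopper-Pearson). The count was 0 of 105 in the control, which allows a share of up to 2.86% as 3 counts of the total. The exact upper limit was 3.45%, and both are for counting error only. In early db/db 27 of 378 met it (7.14%, 4.76 to 10.2), and with the intervention 2 of 125 (1.60%, 0.194 to 5.66). The Ccl21a UMIs of all stromal barcodes numbered 0 for the control, 6 for early db/db, 64894 for late db/db and 0 for the intervention. Ccl19 had 57, 742, 6081 and 115 UMIs in the same order, so a Ccl19 message was present in all 4 libraries.

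The 27 early barcodes that met the rule differed from most late cells in Ccl21a and in the level of Rgs5. They held 487 Ccl19 and 6 Ccl21a UMIs. Of the 27, 25 had at least 3 UMIs of the mural genes, but so had 98 of the 121 late cells. Rgs5, a pericyte gene, stood at 4291 CPM in the early barcodes against 604 in the late cells. Some late cells resembled the early barcodes: with 0 Ccl21a and 13, 12 and 12 Ccl19 UMIs, they had 24, 21 and 73 of Rgs5. A further late cell with 0 Ccl21a had 83 Ccl19 UMIs and 1 of Rgs5. Both intervention barcodes likewise had mural genes and no Ccl21a. When 10 UMIs of Ccl21a alone were asked for, a condition added after these values were seen, the counts were 0, 0, 113 and 0 of the stromal barcodes in the 4 libraries. At 3 counts of the total, the 0 of 378 in early db/db allows a share of up to 0.794%. The 0 of 125 with the intervention allows up to 2.40%, and exact upper limits are somewhat higher. Lymphocytes in the same libraries numbered 17, 94, 2061 and 19 T cell barcodes and 243, 289, 1948 and 38 B cell barcodes, and their part in the result was not tested.

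**Figure D1:**
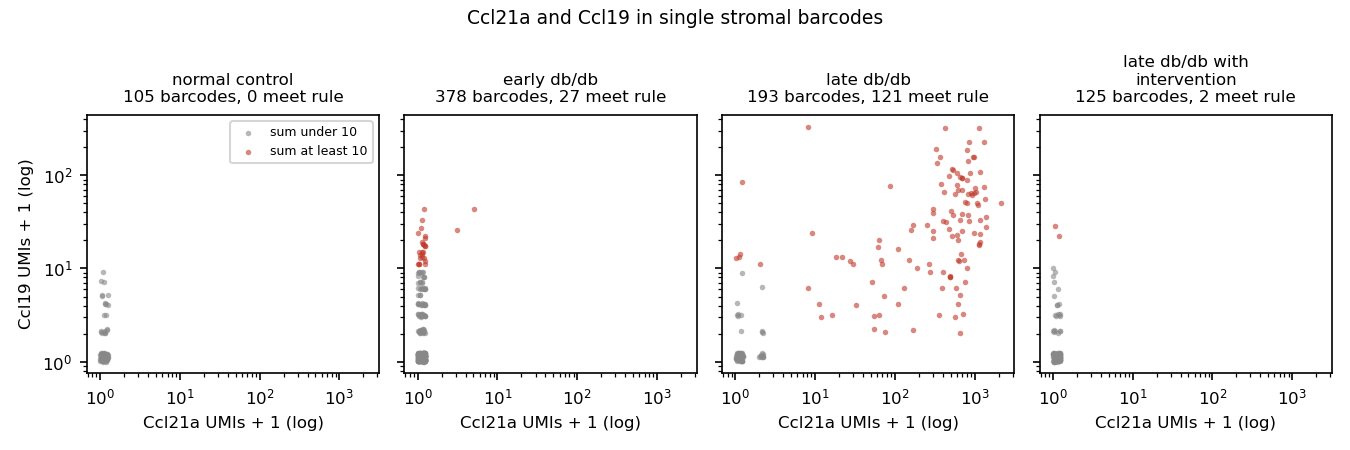
Ccl21a (x axis) and Ccl19 (y axis) UMIs plus 1 on log axes in each stromal barcode of the 4 libraries, with points shifted slightly at random so that equal values show. Red points meet the rule of at least 10 UMIs in sum: the late db/db points spread far along the Ccl21a axis, whereas the 27 early and 2 intervention points stay at its left and rise along Ccl19.

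The levels of both chemokines in the classes of late db/db are given as a description, since they chose the cells. Ccl21a stood at 38938 CPM in the 121 cells (38639 to 39238), 287 in T cells, 530 in B cells, 188 in endocrine cells and 14.2 in the other fibroblasts. Lymphatic endothelial cells, which also make CCL21, had 4106 CPM. After thinning each cell to 2000 UMIs, 107 of 113 cells (94.7%, 88.8 to 98.0) had a Ccl21a UMI, against 4.02% of T cells, which do not make it. Without thinning the share was 96.7%, and the median depths were 13994 UMIs here and 6545 in T cells. Ccl19 was at 3633 CPM, with at most 43.2 CPM in any other late class.

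Genes of factors that attract or sustain lymphocytes were mostly higher in these cells than in other fibroblasts. The measured comparison sets them beside the 22 other fibroblasts of the same library, which passed the same conditions with at most 2 chemokine UMIs and without mural, Schwann, epithelial, immune or hormone markers. A gene entered with at least 50 CPM in the higher class and 50 UMIs in both together, and was counted at a difference of 2-fold or more. Over all 3483 genes that entered, 510 were higher (14.6%) and 444 lower (12.7%), with a median log2 ratio of -0.02. Scaling by the trimmed mean of M-values (TMM) moved that median to 0.19 and gave 648 higher and 328 lower genes, so that 66.4% of the counted genes were higher in place of 53.5%. Of 34 listed factors 23 entered, of which 14 were higher and 4 lower, with a median log2 ratio of 1.68. The entry limits were uneven. A gene at 50 CPM in the 121 cells alone met the limit of 50 UMIs, but in the other fibroblasts alone it needed 355 CPM, so a scarce gene could enter more easily where the reticular fibroblasts were high. Il7, Tnfsf11 and Ch25h entered in this way, and the members that entered are not all the members. Of the 14 higher factors 9 were under 50 CPM in the other fibroblasts, and of all 510 higher genes 419 were. With 355 CPM asked for in the higher class, whichever it was, a limit added after these values were seen, 475 genes entered, of which 56 were higher and 137 lower (11.8% and 28.8%). Of the listed factors 10 then entered, with 7 higher and 2 lower.

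Among the chemokines of that list, Cxcl12, whose receptor is Cxcr4, was at 3763 CPM (3671 to 3858) against 1299 in the other fibroblasts, a log2 ratio of 1.53 (1.32 to 1.75). It had a UMI in 117 of the 121 cells, and per cell it ranged from 0 through a median of 3499 to 14711 CPM. Cxcl13 was at 1859 CPM against 28.4 (log2 ratio 6.03, 4.67 to 7.91), but it had a UMI in only 39 cells, and 6 cells held 85.1% of it. The monocyte chemokines Ccl2 and Ccl7 were at 759 and 643 CPM, with log2 ratios of 2.28 (1.68 to 2.96) and 2.04 (1.44 to 2.72). The eosinophil chemokine Ccl11 was lower, at 481 against 1427 CPM (log2 ratio -1.57, -1.79 to -1.34).

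The survival factors were scarcer messages and had a similar direction. Il7, which lymphocytes need to survive, was at 236 CPM (214 to 261) in these cells, with 394 UMIs in 75 cells, against 1 UMI in the other fibroblasts (log2 ratio 5.06, 2.57 to 10.37). It was at 19.4 CPM in lymphatic endothelial cells and at most 4.18 in T, B, dendritic and endocrine cells. Tnfsf13b, which encodes the B cell factor BAFF, was at 119 against 49.7 CPM (1.27, 0.20 to 2.60). Tnfsf11, encoding RANKL, had 137 UMIs in 36 cells and 0 in the other fibroblasts, at least 3.86-fold higher against a floor of 3 UMIs in their sum. Il33, an alarmin stored in the nucleus of stromal cells, was at 555 against 85.2 CPM (2.70, 1.89 to 3.66). Il6 was lower than in the other fibroblasts, at 78.0 against 298 CPM (-1.93, -2.45 to -1.40).

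Enzymes and antagonists that shape lymphoid niches completed the group. Grem1, an antagonist of bone morphogenetic proteins, was at 1508 CPM (1449 to 1568) in these cells and 21.3 in the other fibroblasts (6.15, 4.60 to 8.42). It had a UMI in 104 cells, and Bmp4, which encodes one such protein, was lower (-1.53, -2.08 to -0.96). Enpp2, the enzyme autotaxin that makes lysophosphatidic acid, was at 1335 against 199 CPM (2.75, 2.21 to 3.34). Ch25h, which makes an oxysterol that guides B cells, was at 77.4 against 14.2 CPM (2.45, 0.57 to 5.51).

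Surface genes of lymphoid stroma did not shift as a group: of 24 listed, 15 entered, 7 were higher and 3 lower, and the median log2 ratio was -0.07, below the shift of scaling that TMM makes and so without a firm sign. Bst1, an ectoenzyme found on reticular cells, was at 397 CPM (368 to 429) with a UMI in 100 cells, against 1 UMI in the other fibroblasts (5.81, 3.32 to 11.11). The integrin ligand Vcam1 was at 832 against 241 CPM (1.79, 1.30 to 2.32) and Icam1 at 205 against 78.1 (1.39, 0.53 to 2.41). Madcam1, a ligand of gut-homing integrins, had 189 UMIs in 44 cells and 0 in the other fibroblasts, at least 5.33-fold higher. Lymphatic endothelial cells had it at 1772 CPM, above the 113 CPM of these cells. The regulator Nkx2-3 was at 106 against 128 CPM (-0.27, -0.98 to 0.51) and Ltbr, the lymphotoxin receptor gene, at 52.2 against 63.9 (-0.29, -1.28 to 0.89), both with intervals across 0. Tlx1, a spleen stroma factor, had 1 UMI. Lepr, the gene disrupted in db mice, had 87 UMIs here and 0 in the other fibroblasts, and counts from the 3′ end check nothing about the allele.

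Several genes of the lymphotoxin receptor and NF-kappaB pathway were higher. Of 26 listed genes 13 entered, 6 were higher and 0 lower, with a median log2 ratio of 0.85. At 355 CPM 3 entered and 2 were higher. Nfkb2 was at 93.0 against 7.10 CPM (3.71, 1.21 to 9.02) and Relb at 115 against 42.6 (1.44, 0.29 to 2.90). The ubiquitin ligase genes Birc2 and Birc3 had log2 ratios of 2.74 (2.03 to 3.55) and 1.83 (0.84 to 3.06). The inhibitors Nfkbia and Nfkbie had 1.11 (0.82 to 1.42) and 2.33 (0.96 to 4.22). Nfkb1 was at 114 against 121 CPM (-0.08, -0.80 to 0.73) and Tnfrsf1a, a tumour necrosis factor receptor gene, at 181 against 199 (-0.13, -0.69 to 0.48). Ltb, the lymphotoxin beta gene, was at 682 CPM in T cells and 648 in B cells of this library and at 58.8 CPM in the 121 cells.

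Genes known from follicular dendritic cells, the stromal cells that hold antigen for B cells, were present unequally. Clu, encoding clusterin, was at 11418 CPM (11256 to 11581) against 35.5 (log2 ratio 8.33, 7.11 to 9.95), the highest ratio among genes outside the rule that met the limits for naming. Its level was 4262 CPM in lymphatic endothelial cells and between 268 and 826 in T, B, dendritic and endocrine cells. Mfge8, whose product tags dying cells for uptake, was at 11313 CPM against 277 (5.35, 4.90 to 5.85) and had a UMI in all 121 cells. Cr2, complement receptor 2, had 65 UMIs in 12 cells, while Fcgr2b had 3 UMIs and Fcer2a had 2. Of 13 listed genes 5 entered, 2 were higher and none lower.

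Complement genes were high as well, with 4 of 12 that entered higher and 0 lower, or 3 of 7 and 0 at 355 CPM. Clu is on this list too and is among the higher genes at both limits, so the 2 groups share it. C3, the central complement protein, was at 8932 CPM (8790 to 9077) against 2406 (1.89, 1.74 to 2.05), with a UMI in 117 cells. C4b was at 1906 against 263 CPM (2.86, 2.39 to 3.37) and Cfb at 114 against 14.2 (3.01, 1.13 to 6.06). The inhibitor gene Serping1 had an interval across 0, with a log2 ratio of 0.13 (-0.06 to 0.32).

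Antigen presentation genes were higher where they differed: 4 of 12 class I and peptide loading genes that entered (B2m, H2-K1, Psmb8 and Psmb9), and all 4 class II genes that entered. At 355 CPM these were 2 of 3 class I genes and Cd74 alone of class II. B2m was at 2091 against 646 CPM (1.69, 1.39 to 2.01). Cd74, the class II invariant chain, was at 904 against 42.6 CPM (4.41, 3.28 to 5.86) and H2-Ab1 at 190 against 21.3 (3.15, 1.59 to 5.44). B cells had Cd74 at 13097 CPM, so the level here was low beside cells that present antigen. In the 121 cells there were 10.2 Cd74 UMIs for each UMI of Igkc, the immunoglobulin kappa chain, against 0.346 in B cells and 4.28 in T cells. The ratio was 0.267 in mural cells, 0.6 in the other fibroblasts and 0.897 in endocrine cells. It was not taken in dendritic cells, and the part of RNA from other cells was not tested. Ciita, the class II regulator, had 13 UMIs in 6 cells. A single cell had B cell genes: it held all 14 UMIs of Ms4a1, 38 of the 53 of Ighm and 11 of the 19 of Cd79a. The same cell held 7 of the Ciita UMIs, 81 of 214 of H2-Aa, 38 of 129 of H2-Eb1, 31 of 316 of H2-Ab1 and 147 of 1507 of Cd74. Without it Cd74 was at 823 CPM (log2 ratio 4.27), H2-Ab1 at 172 (3.02), H2-Aa at 80.5 (2.50) and H2-Eb1 at 55.1. The dendritic cell genes Flt3, Xcr1, Itgax, Cd209a and Clec9a were at 0. The whole dendritic list summed to 888 CPM here against 1980 in the other fibroblasts, of which Cst3, a gene that many cell types express, made up 789 and 1895 CPM.

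Matrix genes were mostly lower. Of 43 reticular and basement membrane genes that entered, 31 were lower and 4 higher (Col12a1, Fn1, Mfap4 and Vtn), with a median log2 ratio of -1.92. At 355 CPM 25 of 29 were lower and 2 higher. The collagen gene Col4a1 of basement membranes was at 360 against 1533 CPM (-2.09, -2.32 to -1.86), Col6a3 at 126 against 497 (-1.98, -2.38 to -1.57) and Col15a1 at 1.20 against 980 (-9.67, -12.73 to -7.79). Fn1, fibronectin, was at 1875 against 454 CPM (2.05, 1.69 to 2.43) and Vtn, vitronectin, at 924 against 163 (2.50, 1.91 to 3.16). Matrix enzymes were lower in 14 of 17 that entered and higher in 0, among them the crosslinking enzyme Lox (-5.76, -6.80 to -4.84) and the protease Mmp2 (-4.08, -4.61 to -3.56). Of the rule's own collagen genes, given as a description only, Col1a1 was at 565 against 2151 CPM and Col3a1 at 672 against 4514.

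Adventitial fibroblast genes, which mark the cells around vessels and ducts, were lower in 12 of 15 that entered and higher in 1, Igfbp5 (3.54, 2.89 to 4.27). The median log2 ratio was -2.55. Gsn, gelsolin, was at 1550 against 18064 CPM (-3.54, -3.62 to -3.46), and Cxcl14 at 15.6 against 1959 (-6.97, -7.61 to -6.39). Igfbp6 had 5 UMIs, against 632 CPM in the other fibroblasts (-7.72, -9.38 to -6.44), Hsd11b1, which regenerates glucocorticoid, at 2.40 against 1178 (-8.94, -10.83 to -7.56), and Clec3b at 186 against 1093 (-2.55, -2.84 to -2.27). Pi16 and Cd34, marks of adventitial progenitors, had 1 and 10 UMIs in the 121 cells.

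Contractile genes were higher in 9 of 17 that entered and lower in 0, with a median log2 ratio of 1.20. At 355 CPM 7 entered and 4 were higher. Tagln, a smooth muscle actin-binding protein, was at 1018 against 14.2 CPM (6.16, 4.31 to 9.21), Acta2 at 395 against 7.10 (5.80, 3.31 to 11.10) and Des, desmin, at 789 against 135 (2.55, 1.90 to 3.29). Mural cells of the same library had Acta2 at 5150 CPM and Tagln at 3613. The 12 mural markers summed to 2157 CPM in the 121 cells, from 0 to 17335 per cell with none of the 12 at 0 over all cells. They summed to 327 CPM in the other fibroblasts, whose definition limited 5 of them, and 19751 in the 32 mural cells. Of the 121 cells 21 passed the same limits as the other fibroblasts. In these 21, several log2 ratios were close to or above those of all 121. They were 6.38 for Tagln, 5.88 for Acta2 and 3.77 for Myh11. Clu had 8.76, Grem1 6.31, Bst1 6.22, Il7 4.88 and Cxcl12 1.81. Other genes moved, among them Rgs5 at 2.03, Ltbr at -2.46 and Abcc9, reversed at -1.10. Col15a1, with a UMI in 2 of all 121 cells, stood at -5.82, a bound set by the floor of 3 UMIs. No intervals were taken for the 21 cells. Rgs5 and Abcc9 are among the genes limited. With these 21 cells 908 genes entered, against 3483 with all 121.

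The rule for named genes also gave several that are not in the lists. The desmosomal cadherin genes Dsc3 and Dsg2 stood at 705 and 276 CPM, with 0 and 1 UMIs in the other fibroblasts. Dsc3 was at least 33.1-fold higher, and Dsg2 had a log2 ratio of 5.28 (2.80 to 10.59). Serpina10, a plasma protease inhibitor, had 877 UMIs in 103 cells and 0 in the other fibroblasts, at least 24.7-fold higher. Stmn2, which binds microtubules, was at 593 CPM with a log2 ratio of 6.38 (3.90 to 11.69), and Csmd1 and Parm1 had 4.75 (2.26 to 10.06) and 5.65 (3.16 to 10.95). Mme, the endopeptidase neprilysin, had 4.43 (2.57 to 7.48) and Csf2rb, a cytokine receptor subunit, 4.25 (2.69 to 6.53). Plvap, a gene of fenestrated endothelium, was at 341 CPM in 95 cells (4.59, 2.73 to 7.63), while the endothelial genes Kdr, Flt1, Cldn5 and Tie1 were at 0. At the other end were Gdf10 (-7.10, -7.97 to -6.34), Fbln1 (-7.28, -8.44 to -6.30), Penk (-6.61, -7.43 to -5.88), Dpep1 (-6.76, -7.32 to -6.25) and Dlk1. Dlk1 had 0 UMIs here and 145 in the other fibroblasts.

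The 22 other fibroblasts held 147745 UMIs, with a median of 7397.5 per cell, which sets the width of these intervals. Acinar genes moved with the comparison: all 10 that entered were lower, their sum was 910 CPM in the 121 cells and 10249 in the other fibroblasts, and their part in the result was not tested.

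**Figure D2:**
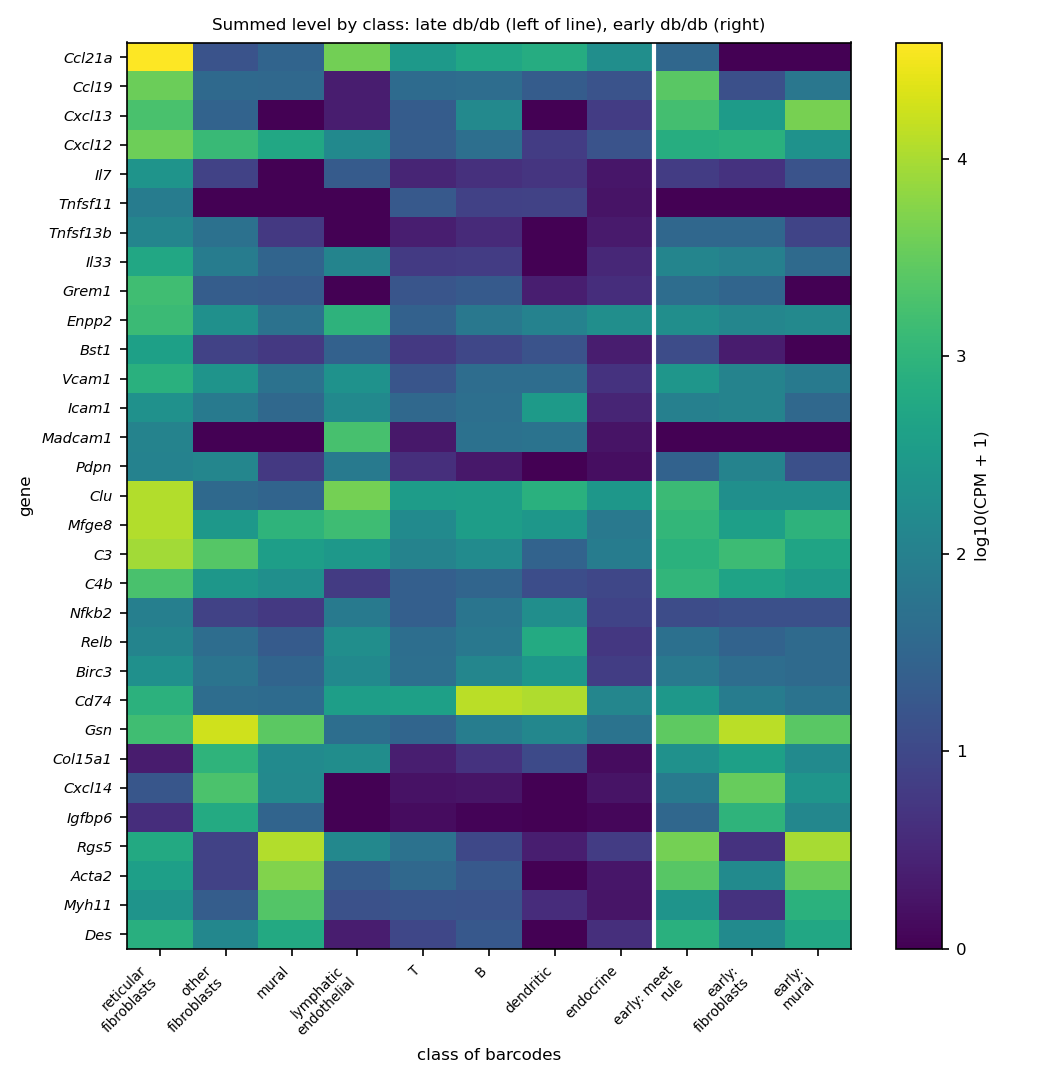
Summed level of each gene (rows) in 8 classes of late db/db and 3 of early db/db (columns), coloured by log10 of CPM plus 1. Grem1, Bst1 and Il7 are bright in the first column and dark in the other late classes. So is Ccl19, a gene that chose the cells. Madcam1 and Clu are shared with lymphatic endothelial cells, and Rgs5 and Acta2 are brightest in mural cells.

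Against the 141 fibroblasts of early db/db, gated in the same way, the lymphocyte factors were again mostly higher and the matrix genes mostly lower. This comparison uses the same 121 cells as the last, so the values are given side by side and no overlap is read as support. Of 3636 genes that entered, 536 were higher (14.7%) and 534 lower (14.7%), with a median log2 ratio of -0.09. Age differs too, at 70 against 98 days. Of 24 lymphocyte factors that entered, 18 were higher and 4 lower (Tslp, Cxcl14, Ccl11 and Bmp4), with a median log2 ratio of 2.03.

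Grem1 had a log2 ratio of 5.64 (5.08 to 6.27) here, Il7 6.03 (4.47 to 8.31), Cxcl12 2.23 (2.11 to 2.35) and Enpp2 3.40 (3.11 to 3.69). Bst1 was at 397 CPM against 1.21 (8.36, 5.88 to 13.67). Il6 was higher here, at 78.0 against 37.4 CPM (1.06, 0.49 to 1.68), whereas it was lower than in the late fibroblasts. The interferon-induced T cell chemokine Cxcl10 was at 293 CPM, against 13.3 in early fibroblasts (4.46, 3.61 to 5.48) and 270 in the late ones (0.12, -0.36 to 0.64). Cxcl13 was at 1859 against 335 CPM (2.47, 2.29 to 2.65), and the 151 mural cells of early db/db had 4393 CPM, more than either.

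The NF-kappaB pathway had 10 of 14 genes higher and 1 lower, Tnfrsf12a, with a median log2 ratio of 2.16. Tnfaip3, a feedback inhibitor, was at 154 against 9.65 CPM (3.99, 2.99 to 5.22), and Nfkbia had a ratio of 2.74 (2.53 to 2.96). Ltbr again had an interval across 0 (-0.24, -0.75 to 0.29). Matrix genes were lower in 34 of 44 that entered and higher in 3, and adventitial genes lower in 15 of 18 and higher in 2. Immediate early genes, which respond to dissociation as well as to signals, were higher in 9 of 24 and lower in 1, against 2 higher and 3 lower in the late comparison. Acinar genes summed to 25977 CPM in the early fibroblasts, and the part of both lists in the result was not tested.

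**Figure D3:**
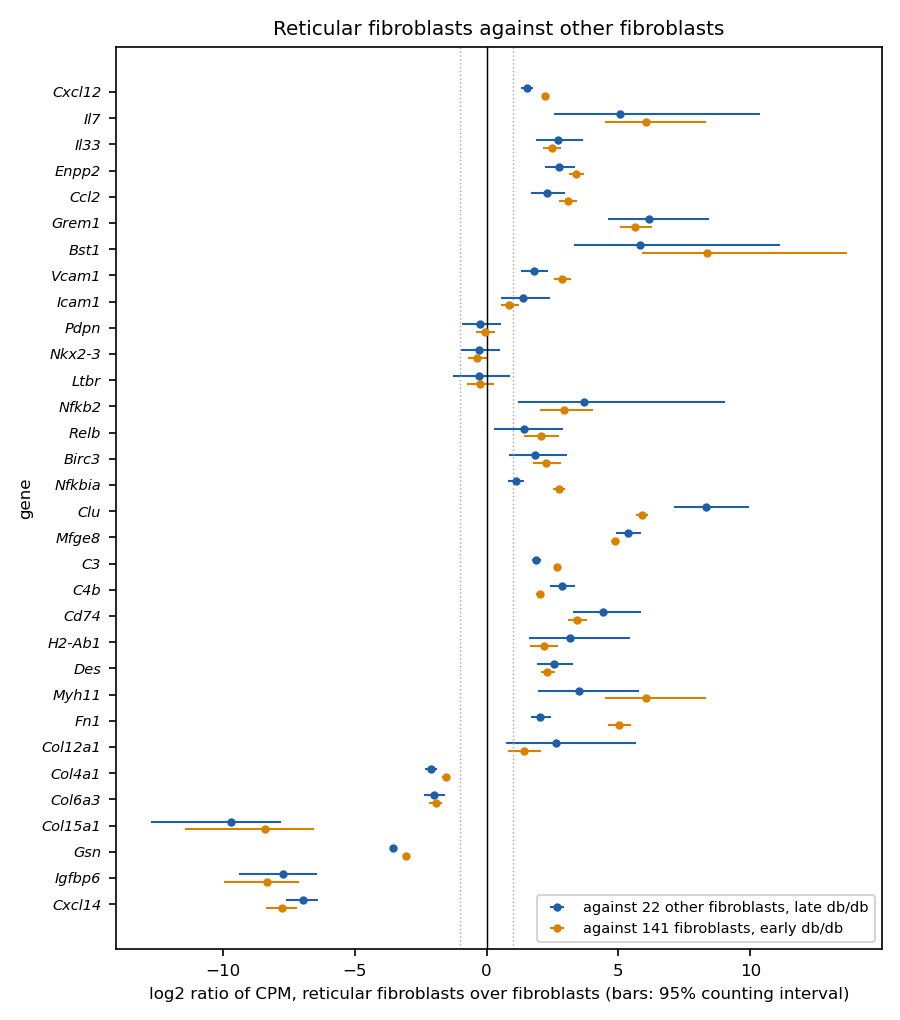
Log2 ratio of CPM (x axis) of the 121 reticular fibroblasts over the 22 other late fibroblasts (blue) and the 141 early fibroblasts (orange) for each gene (y axis), with 95% counting intervals and dotted lines at 2-fold. Stromal factor, complement and NF-kappaB genes lie to the right, Pdpn, Nkx2-3 and Ltbr at 0, and most matrix and adventitial genes to the left.

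Among all late classes, the genes most like Ccl21a were found by the ratio of their level in the 121 cells to the highest of the 7 other late classes, lymphatic endothelium, mural, T, B, dendritic and endocrine cells and other fibroblasts. Ccl21a itself had a ratio of 14.5, set by lymphatic endothelial cells. The 10 highest other genes were Ccl19 (85.5), Grem1 (70.8), Dsc3 (33.1), Bst1 (18.7), Cxcl13 (14.7), Mme (14.4), Gm2564 (12.5), Mfge8 (11.7), Lrat (11.4), which makes retinyl esters, and Il7 (11.1). Ccl21a and Ccl19 chose the cells, and the other fibroblasts and mural cells were limited in both. Their ratios are therefore descriptions only. For Dsc3, Bst1, Mme, Lrat and Il7 the divisor was the floor of 3 UMIs in the other fibroblasts, 21.3 CPM. Receptors for these factors were on lymphocytes of the same library: Ccr7 was at 284 CPM in T cells and 328 in B cells, Il7r at 301 and 17.3, and Cxcr5 at 6.09 and 66.2. The 121 cells had 6, 14 and 2 UMIs of them.

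The cells differed most among themselves in Cxcl13. Of 275 genes with at least 100 UMIs after thinning to 2000 UMIs per cell, Cxcl13 had the highest ratio of variance to mean, 44.8, followed by Ccl21a with 32.2, and the median gene had 1.54. Clu had 11.4, Rgs5 9.85 and Gsn 9.71. The cells were then put in 3 ranges by UMIs, after these values were seen: 15 cells with at least 10 Cxcl13, 28 with at least 10 Rgs5 and 78 with neither. No cell had both. A further 24 cells had 1 to 9 Cxcl13 UMIs and 32 had 1 to 9 of Rgs5, so these are ranges and not types.

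The 15 Cxcl13 cells held most Cr2 and had the highest Tnfsf11, Madcam1, Clu and Mfge8 of the 3 ranges. Cr2 had 62 of its 65 UMIs in them, in 10 cells, at 256 CPM (196 to 328), against 0 UMIs in the Rgs5 range and 3.11 CPM in the rest. Tnfsf11 was at 269 CPM in them, 2.18 in the Rgs5 range and 73.6 in the rest, and Madcam1 at 339, 76.3 and 74.6. Clu was at 20962, 13227 and 8164 CPM in the same order, and Mfge8 at 18707, 9882 and 10139. Ccl21a was lowest in them, at 22169 CPM against 35918 and 44578, and 14 of the 15 still had it. Il7 was at 66.1 CPM against 314 and 242.

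The 28 cells with Rgs5 had the highest Ccl19, 5803 CPM against 2466 in the Cxcl13 range and 2893 in the rest. Their mural receptor Notch3 was at 257 CPM against 24.8 and 71.5. Cxcl9, an interferon-induced T cell chemokine, was at 562 CPM in them, with 258 UMIs in 11 cells, and had 0 UMIs in the Cxcl13 range. A single cell held 236 of the 258, and without it the level was 50.6 CPM, below the 94.3 of the remaining 78 cells. The 78 remaining cells were highest in Cxcl12, at 4934 CPM against 2830 and 1793, and in Gsn, at 2113 against 393 and 976. They also had most Clec3b, 284 CPM against 4.13 and 76.3. All 9 cells with high doublet scores were among these 78. Median depth was 17552, 16363 and 13322 UMIs in the 3 ranges.

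**Figure D4:**
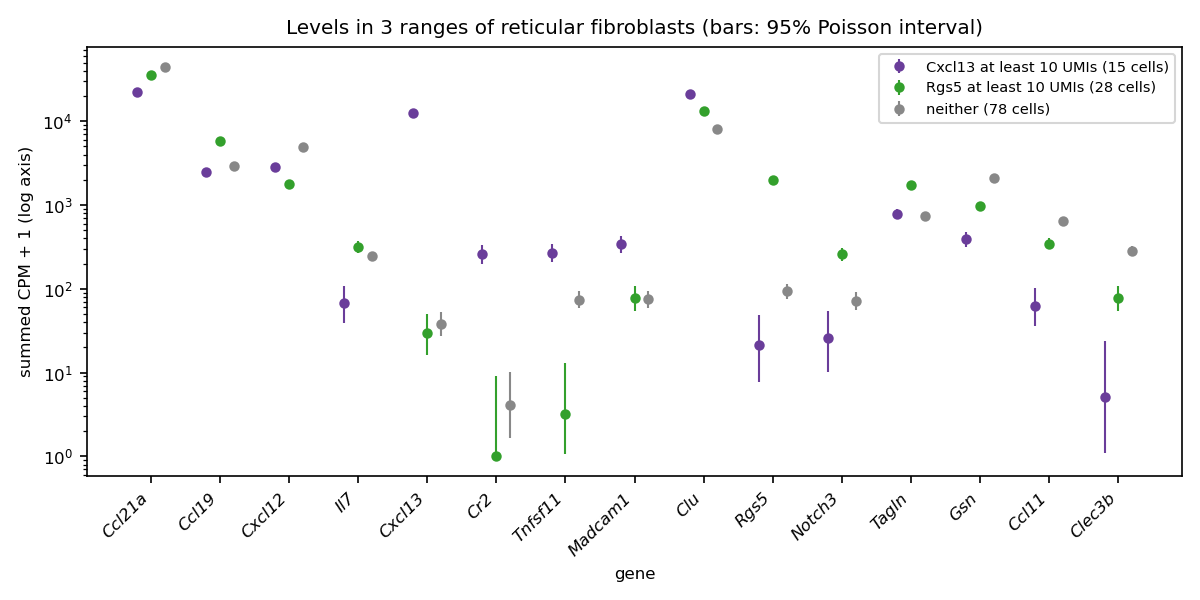
Summed level (CPM plus 1, log axis) of 15 genes in the 3 ranges of reticular fibroblasts, with 95% Poisson intervals. Cxcl13 and Rgs5 set the ranges. Cr2, Tnfsf11 and Madcam1 are highest in the 15 Cxcl13 cells, Ccl19 and Notch3 in the 28 Rgs5 cells, and Cxcl12, Gsn and Clec3b in the 78 others.

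Per-cell detection varied between the factors. After thinning, a UMI of Cxcl12 was seen in 92.9% of cells (86.5 to 96.9), Grem1 in 77.9%, Bst1 in 46.0%, Il7 in 26.5% (18.7 to 35.7), Cxcl13 in 18.6% and Madcam1 in 13.3%. Without thinning these were 96.7%, 86.0%, 82.6%, 62.0%, 32.2% and 36.4%. In T cells, thinned alike, the shares were 0.785%, 0.491%, 0.294%, 0.0981%, 0.393% and 0.0491%. Each of these 6 genes was seen in a larger share of reticular fibroblasts than of T cells.

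Marker lists of other cell types were present to different degrees. The 13 lymphatic endothelial genes, another source of CCL21, summed to 320 CPM here against 170 in the other fibroblasts, and 80 cells had at least 3 UMIs over them. Ecscr made up most of that sum, with 285 CPM in 102 cells, and Flt4 had 27 UMIs in 21 cells. Mmrn1, Reln, Tie1, Gpr182 and Cldn5 were at 0, and Lyve1 and Prox1 had 2 and 8 UMIs. The part of these genes in the result was not tested. Of the 12 T cell genes Cd3d was at 0 and 3 cells had at least 3 UMIs over the list. The 12 macrophage genes summed to 85.2 CPM with Adgre1 and Mrc1 at 0. The 12 B cell genes summed to 503 CPM, from 0 to 9731 per cell, against 916 in the other fibroblasts. The 12 beta cell genes summed to 1325 CPM against 1916, with Slc2a2, Mafa, Ucn3 and Glp1r at 0. A single cell held all 92 Krt8 UMIs and 1342 of the 1349 Spp1 UMIs, with 50019 UMIs in total. Other epithelial genes were spread more widely. Sox9 had a UMI in 24 cells and Krt7 in 11, and 112 cells had at least 3 UMIs of the acinar genes.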

How the data were processed

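Islet cell suspensions were profiled in 4 libraries, 1 per group. The deposited matrices hold counts of UMIs per gene and barcode as whole numbers without normalization, written by Cell Ranger 3.0.0 per the file headers. The submitters' processing notes name mm10, CASAVA 1.8, Cell Ranger and Seurat. The sources used here do not give the annotation behind the counts. Symbols were summed over the 30905 gene rows. The early db/db matrix bears a name that reads as a control, and the sample label was followed.

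Members, gene lists, classes and naming rules were chosen with earlier results of these data known. Named genes were all listed genes, the 25 highest and 12 lowest log2 ratios against late fibroblasts with a UMI in at least 25% of the higher class, and the 10 most like Ccl21a. UMIs were summed per class, with mitochondrial and 7 hormone genes left out of the CPM denominator. Levels have exact Poisson, shares exact Clopper-Pearson and ratios exact conditional binomial intervals at 95%. Where a class had 0 UMIs the ratio was bounded at 3 UMIs, and where 0 barcodes met a condition the share was bounded at 3 counts. Levels of T, B and lymphatic cells leave out barcodes with 10% or more hormone UMIs, a limit added after these classes were seen to hold such barcodes, but the ranking of genes like Ccl21a and the thinned shares keep them. Scrublet (scanpy 1.11.5) automatic thresholds marked 2 of 5115 barcodes with the intervention, so the highest 0.8% per 1000 barcodes were marked instead, and marked cells stayed in except in the alternative without them. TMM factors came from edgeR 4.0.16. The ratio code was tested on simulated data. No test across samples was run. Alternatives changed the denominator, the entry level, the cell filters, doublets, each part of the rule and the thinning depth.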

Additional observations from a re-analysis of the deposited data

How the results depend on the processing

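No paired analysis was possible because each group is 1 library. Comparisons with fibroblasts of the control (13 cells) and the intervention (25) and with late mural cells (32) were not run, since they fell under the minimum of 50 cells. The 22 late fibroblasts also fall under it, and that comparison was kept because it lies within 1 library. Without the minimum CPM, 858 genes were higher and 444 lower than in late fibroblasts, and 859 higher and 653 lower than in early ones, with more genes entering (4968 and 6247). With 355 CPM asked for in the higher class, 56 genes were higher and 137 lower than in late fibroblasts, with 475 entering. In the 21 cells that passed the other-type limits, 122 genes were higher and 173 lower than in late fibroblasts, and 278 higher and 643 lower than in early ones, with fewer genes entering (908 and 3034). The share of stromal barcodes in early db/db was 2.12% at 20 chemokine UMIs, 0.529% with the other-type limits and 0% with Ccl21a alone. In late db/db it was 73.9% with 10 matrix UMIs and 10.9% with the other-type limits, and with the intervention 0% under those limits and with Ccl21a alone. Thinning to 1000 UMIs gave 4.13% of cells with Pdpn, 14.9% with Il7 and 6.61% with Madcam1. No thinning gave 61.2%, 62.0% and 36.4%, with 32.2% for Cxcl13 and 49.6% for Rgs5. Thinned to 2000 UMIs, Pdpn was at 19.5% and Rgs5 at 31.9%. Of 580 values of named genes under alternatives in each comparison, 31 and 47 moved and 1 each reversed, both by construction. The mural gene Abcc9 had a log2 ratio of -1.10 in the cells limited in mural genes, and Cxcl13 had -3.28 against early fibroblasts without the 15 cells of at least 10 Cxcl13 UMIs. Ltbr was at -2.46 in the 21 cells, where no interval was taken. Depth limits genes with few UMIs in the 22 late fibroblasts, where 1 UMI is 7.10 CPM. The alternatives with 355 CPM, with Ccl21a alone and without Cxcl13 cells were added after seeing the data.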

Other observations

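Prostaglandin, growth factor and lipid genes not described above also differed from the other late fibroblasts. Ptgs2, the inducible cyclooxygenase, was at 577 CPM against 177 (log2 ratio 1.70, 1.13 to 2.34), and at 24.1 CPM in early fibroblasts. Of 8 glucocorticoid, prostaglandin and arginine genes that entered, Ptgs2 alone was higher, and Hsd11b1, Tsc22d3, Ptges and Aldh1a1 were lower. Of 13 growth factor and receptor genes that entered, Vegfa (2.08, 0.95 to 3.54) and Pdgfa (1.52, 0.27 to 3.16) were higher and 5 were lower, among them Igf1 (-1.97, -2.40 to -1.53). Apoe, a lipid carrier, was at 15021 against 6289 CPM (1.26, 1.16 to 1.35). Lpl, lipoprotein lipase, was at 53.4 against 2626 CPM (-5.62, -5.97 to -5.28).

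Interferon response genes were split: among those that entered, Irf8, Bst2 and Iigp1 were higher and Irf1 and Ifi27l2a lower. Irf8, a factor best known in B and myeloid cells, was at 276 against 35.5 CPM (2.96, 1.73 to 4.59) with a UMI in 103 cells, against 522 CPM in B cells and 54.7 in T cells. Cell cycle genes were sparse, with 5 UMIs of Mki67 over the 121 cells.

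Another 74 kept barcodes of late db/db had at least 10 UMIs of Ccl21a and Ccl19 together but failed another condition. Of these, 51 had Ptprc UMIs, 22 had more than 1 UMI of Pecam1 and Cdh5, 25 had fewer than 3 UMIs of the matrix genes and 9 had 10% or more insulin UMIs, with some failing several.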
